A study of Mus musculus with 20 samples.

Results

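Long noncoding RNAs that carry small nucleolar RNAs (snoRNAs) in their introns were followed in mouse embryonic stem cells (ESCs) with and without Cnot3, a subunit of the CCR4-NOT complex that removes poly(A) tails from cytoplasmic RNA. The 7 genes chosen by name were Gas5, Snhg1, Snhg3, Snhg5, Snhg6, Snhg8 and Snhg12. Each count table listed 37991 Ensembl gene IDs, and 3 of the 7 genes had their GENCODE M21 ID among them: Gas5, Snhg3 and Snhg12. Snhg1, Snhg5, Snhg6 and Snhg8 were not analysed here, since their IDs did not match. Snhg3 received between 0 and 5 reads per library and was not tested, so the results rest on Gas5 and Snhg12.

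RNA was sequenced from 20 libraries in 10 groups of 2 biological replicates. On day 3, whole-cell RNA (total) and polysome-bound RNA, which is RNA carrying several ribosomes, were taken from KO cells, in which 0.1 µM 4-hydroxytamoxifen (4OHT) deleted a conditional Cnot3 allele, and from WT cells, which by the series' design received DMSO instead. On day 2 of 4OHT or DMSO, cells were given actinomycin D (10 µg/ml), which stops RNA synthesis, and whole-cell RNA was collected 0, 4 and 8 h later. All libraries carry the strain label C57BL/6, and all KO and actinomycin D libraries are labelled Cnot3 cKO ESCs. The 4 WT libraries of day 3 are labelled E14Tg2a ESCs, so on day 3 the cell line and the deletion cannot be told apart, whereas on day 2 both arms carry the same line label. How the allele is excised and whether the conditional line is 1 clone are not given in the sources used here.

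SnoRNAs guide the chemical modification of ribosomal and other RNAs: C/D box snoRNAs direct ribose methylation and H/ACA box snoRNAs direct the change of uridine to pseudouridine. Most mammalian snoRNAs are cut out of introns of a host gene, after which the spliced exons leave the nucleus as a separate RNA. For hosts such as Gas5 the exons hold short reading frames, ribosomes bind them, and nonsense-mediated decay (NMD), which acts on translated RNA, removes them. Many hosts also begin with an oligopyrimidine tract, the mark of mRNAs for ribosomal proteins, whose translation follows growth signals.

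Gas5 (growth arrest specific 5, ENSMUSG00000053332) lies on the plus strand at chr1:161034422-161038539 of GRCm38, with 25 annotated transcripts of 2 to 12 exons and 10 small RNA genes inside it. Snhg12 (ENSMUSG00000086290) lies on the plus strand at chr4:132308623-132311024 with 10 transcripts and 5 small RNA genes. Snhg3 (ENSMUSG00000085241), on the minus strand at chr4:132348014-132353686, overlaps the protein-coding gene Rcc1 on its own strand. The bases around the start of both tested genes are shown because both were lower in KO polysomes, and a pyrimidine run at the start is what marks an oligopyrimidine RNA. They run from 60 bases before the annotated start to 50 after it (RefSeq, GRCm38.p6), with the longest run of C or T that touches the 10 bases on either side of the start in capitals.
Gas5, the second of 2 annotated starts, plus strand, chr1:161035106-161035215: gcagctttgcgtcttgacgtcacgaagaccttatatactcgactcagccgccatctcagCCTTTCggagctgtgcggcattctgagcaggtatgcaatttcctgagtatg
Snhg12, plus strand, chr4:132308618-132308727: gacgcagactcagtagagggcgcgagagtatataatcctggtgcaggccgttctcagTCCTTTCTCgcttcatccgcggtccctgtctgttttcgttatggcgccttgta
The run was 6 bases long for Gas5 and 9 for Snhg12, and 29.2% and 9.55% of 32851 RefSeq promoters had one at least as long. Among 66 promoters of ribosomal protein genes, 54.55% had a run of 6 or more. The other Gas5 start had a run of 3, which 82.9% of promoters reached, and of the 7 RefSeq starts found for the chosen hosts 71.43% had a run of 6 or more. Both printed windows also held TATATA on the gene's strand in the 60 bases before the start, as did 1.56% of all promoters. These are matches of letters, no site was measured, and a link to the polysome levels was not tested.

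Of the small RNA genes inside the 7 hosts, 3 had reads, and their sequences are shown because they are the measured snoRNAs of the chosen hosts. They are GENCODE M21 transcripts on GRCm38. Capitals mark ANANNA (the match nearest the middle, searched from base 41 to base 95) and ACA (last 8 bases) for the H/ACA class, or TGATGA (first 20 bases) and CTGA (last 15 bases) for the C/D class, all on the RNA's own strand.
Snora16a, H/ACA class, within Snhg12, plus strand, chr4:132309465-132309600: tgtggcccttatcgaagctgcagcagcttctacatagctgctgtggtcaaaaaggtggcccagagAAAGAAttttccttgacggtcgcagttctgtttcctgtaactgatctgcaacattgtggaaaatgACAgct
Snora24, H/ACA class, within Snhg8, minus strand, chr3:123507937-123508066: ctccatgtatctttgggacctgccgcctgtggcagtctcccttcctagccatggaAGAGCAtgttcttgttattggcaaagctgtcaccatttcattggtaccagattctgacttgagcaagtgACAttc
Snord87, C/D class, within Snhg6, minus strand, chr1:9942463-9942549: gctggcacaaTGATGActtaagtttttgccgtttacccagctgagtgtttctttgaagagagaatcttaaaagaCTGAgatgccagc
Of 1507 annotated snoRNA transcripts, 40.3% held the H/ACA pair and 20.2% the C/D pair in these windows. The 9 small RNA genes inside Gas5 that had an ID were listed at 0 in all 20 libraries, so no value for Gas5's own snoRNAs can be given.

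Libraries held about 13800000 to 35200000 gene counts. Cnot3 itself was lower in KO in each setting, at 7.33 and 8.12 CPM (gene counts scaled to a common library size by TMM) in total KO against 46.2 and 47.1 in total WT, and at 11.4 and 11.9 against 107.0 and 108.8 on day 2 at 0 h. The total libraries differed in kind from the other 16: snoRNA genes took 0.133% to 0.220% of their counts against at most 0.0208% elsewhere, and reads outside genes 19.8% to 23.7% against 4.75% to 12.9%. Replicate 2 of WT polysomes stood apart from the other 3 polysome libraries. It had 5.02% of counts in mitochondrially encoded mRNAs (0.912% to 1.38% in the others), 0.0208% in snoRNA genes (0.00245% to 0.00503%) and 12.9% of reads outside genes (4.75% to 7.05%). ESC markers (10 genes) summed to 5707 to 5980 CPM in total WT and 3441 to 3608 in total KO, trophectoderm markers (10 genes) to 152.0 to 163.6 and 659.1 to 673.6, and feeder fibroblast markers (11 genes) to 27.0 to 31.1 and 57.9 to 64.0. In polysome WT and KO the 3 sums were 7109 to 7883 and 3882 to 4744, 196.3 to 205.2 and 713.1 to 1331, and 55.7 to 73.6 and 93.7 to 98.1, with Col3a1, Dcn and Postn at 0. At 0 h they were 5884 to 5931 in WT and 4537 to 4552 in KO, 162.3 to 174.7 and 333.6 to 341.6, and 38.3 to 39.4 and 66.2 to 69.0, with Dcn and Lum at 0. Cell state thus moved with the genotype, and its part in the results was not tested.

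In whole-cell RNA of day 3, mean levels of Gas5 and Snhg12 were lower in KO than in WT, but the differences did not pass the test. Gas5 stood at 250.1 and 183.0 CPM in WT and at 140.1 and 133.1 in KO. Snhg12 stood at 59.5 and 43.1 CPM in WT and at 26.9 and 27.4 in KO. KO means were 0.631 of WT for Gas5 and 0.529 for Snhg12. In bulk RNA, fewer cells with the transcript and less transcript per cell cannot be told apart. The log2 difference was -0.67 ± 0.38 (SE) for Gas5 (edgeR quasi-likelihood F-test, Benjamini-Hochberg adjusted p = 0.202) and -0.92 ± 0.34 for Snhg12 (adjusted p = 0.0681). Thus 0 of the 2 genes passed, where 28.2% of all 18303 genes tested did and 12.2% were lower. Snhg12 sat near the threshold, and passed with RLE scaling (edgeR adjusted p = 0.0456) and DESeq2 (0.0119). It also passed in an edgeR fit of the 4 total libraries alone (0.0222), which called more of all genes than the main fit. The spread was shared with the polysome libraries, and whether the 2 genes passed depended on the WT polysome libraries kept. With 1 library left out, the difference ran from -0.94 to -0.49 for Gas5 and from -1.20 to -0.73 for Snhg12. Levels were also scaled to length (RPKM), taken as the union of annotated exons, 3760 bases for Gas5 and 2402 for Snhg12. On this scale Gas5 was higher in WT, at 57.6 ± 12.6 RPKM (SD, n = 2) against 21.4 ± 4.84 for Snhg12. The longest annotated transcripts have 2556 and 1538 bases, so RPKM of the spliced RNAs may differ.

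**Figure D1:**
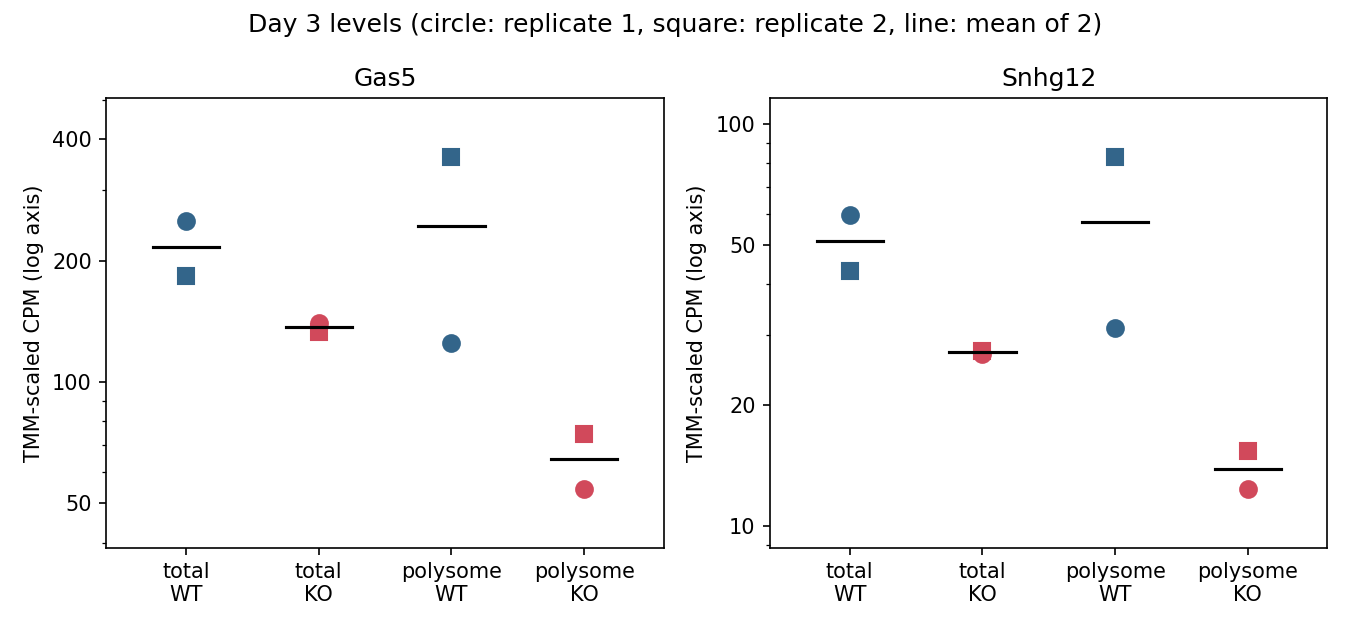
TMM-scaled CPM of Gas5 and Snhg12 on day 3 in each library, on log axes that differ between panels (blue, WT; red, KO; circle, replicate 1; square, replicate 2; line, mean of 2). The WT polysome points are the farthest apart, at 124.7 and 361.5 CPM for Gas5.

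In polysomes both genes were lower in KO and both passed the test. Gas5 was at 124.7 and 361.5 CPM in WT and at 54.4 and 74.3 in KO. Snhg12 was at 31.2 and 83.1 CPM in WT and at 12.4 and 15.4 in KO. Replicate 2 of WT was the highest library for both genes. The difference was -1.92 ± 0.39 on the log2 scale for Gas5 (edgeR adjusted p = 0.00372) and -2.04 ± 0.37 for Snhg12 (adjusted p = 0.00193). KO means were 0.265 and 0.243 of WT. All told, 2 of 2 genes were lower, beside 37.0% of all 18303 genes called and 21.1% called lower. With library totals alone, calls over all genes moved from 2904 higher and 3859 lower to 4547 and 2000, and both hosts still passed (-1.66 and -1.78). The size rests on 1 library: without replicate 2 of WT the differences were -0.94 (adjusted p = 0.00910) and -1.15 (0.00130), and without replicate 1 they were -2.49 and -2.58. Gas5 also lost its call without replicate 1 of KO (-1.71). Without a filter on low counts both genes lost their call, Gas5 at -1.81 (edgeR adjusted p = 0.112) and Snhg12 with an adjusted p of 0.0556.

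The nuclear lncRNAs Malat1 and Neat1 were also highest in replicate 2 of WT polysomes. Malat1 was at 395.8 and 1907 CPM in WT polysomes and at 94.3 and 280.3 in KO polysomes, and Neat1, the scaffold RNA of paraspeckles, at 38.2 and 118.0 against 28.2 and 43.5. Gas5, Snhg12 and Malat1 ranked the 4 libraries in the same order, while for Neat1 replicate 2 of KO lay above replicate 1 of WT. Of 10 tested lncRNAs listed for comparison that are not snoRNA hosts, 8 were lower in KO polysomes and 1 was higher. Their median was -2.36, against -0.08 over all genes. Fewer of these lncRNAs were called lower without replicate 2 of WT or without replicate 1 of KO. With all libraries, 21.1% of all 18303 genes were called lower in KO polysomes, and 2904 genes were called higher. Rn7sk, a nuclear RNA that controls transcription elongation, had 0 and 1 reads in WT polysomes and 3 and 0 in KO polysomes. It had 5 to 25 reads in the 0 h libraries, which are also whole-cell RNA, and 472848 to 807846 in the total libraries. Its reads thus differed with library kind and cannot measure nuclear RNA in polysomes. The part of nuclear RNA in the host result was not tested.

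**Figure D2:**
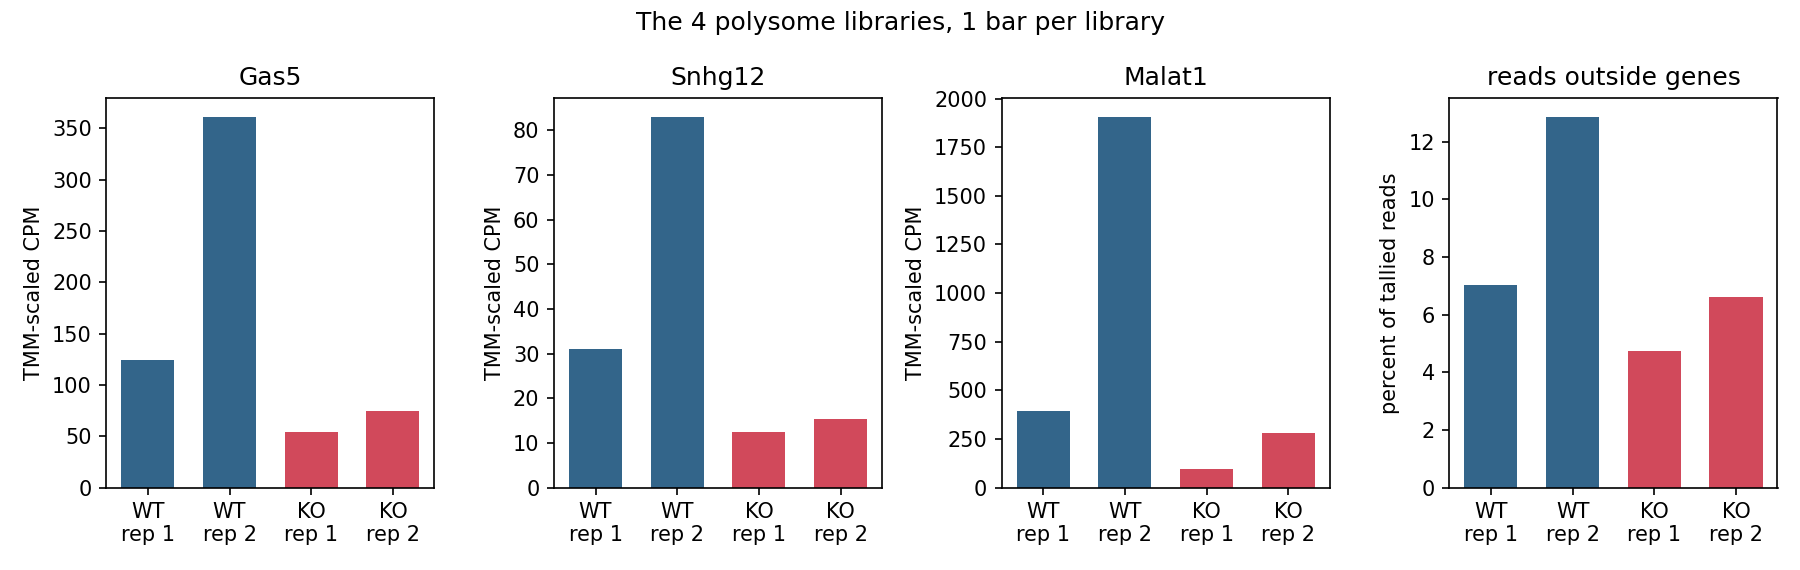
Each bar is 1 polysome library (blue, WT; red, KO): TMM-scaled CPM of Gas5, Snhg12 and the nuclear lncRNA Malat1, and reads outside genes as a percent of tallied reads. Replicate 2 of WT is the highest bar in every panel, with Gas5 at 361.5 CPM, Malat1 at 1907 CPM and 12.9% of reads outside genes.

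The change in polysome association, which is the polysome difference minus the total difference, was negative for both genes but did not pass: -1.25 ± 0.53 for Gas5 (edgeR adjusted p = 0.378) and -1.12 ± 0.49 for Snhg12 (adjusted p = 0.386). Over all 18303 genes 2 were called (0.0109%), and 2304 had an unadjusted p under 0.05. DESeq2 called 67 genes and neither host, whose unadjusted p were 0.0391 and 0.0447 in edgeR. Both hosts were called without replicate 1 of WT polysomes (-1.80, adjusted p = 0.00233, and -1.63, adjusted p = 0.00113), where 4959 genes were called, and moved to -0.25 and -0.21 without replicate 2. Lower levels in whole-cell RNA and lower polysome loading cannot be told apart in these 8 libraries.

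Polysome and total levels were also compared within each genotype. In WT the log2 difference was 0.17 ± 0.37 for Gas5 (adjusted p = 0.720) and 0.16 ± 0.34 for Snhg12 (adjusted p = 0.711), with 0 of 2 called beside 55.7% of all genes. The sign depended on 1 library: the value was -0.79 for Gas5 and -0.71 for Snhg12 without replicate 2 of WT polysomes, and 0.76 and 0.72 without replicate 1, all 4 past the threshold. In KO both genes were lower in polysomes than in total RNA, by -1.08 ± 0.38 (adjusted p = 0.0334) and -0.96 ± 0.36 (adjusted p = 0.0423), beside 52.8% of genes called and 28.7% called lower. Both KO calls were lost when any 1 total library or 1 KO polysome library was left out (adjusted p of 0.0590 to 0.242), and with library totals alone. The library kinds differ as described, so a polysome to total ratio also holds that difference, and the 2 arms were not shown to differ, as the association test gives.

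Other RNAs listed as snoRNA hosts were also lower in KO polysomes. Of 14 listed, 7 had an ID and 6 were tested: Zfas1, Snhg11, Snhg15, Snhg17, Snhg20 and Epb41l4aos. GENCODE M21 gives Snhg11 as protein-coding and the other 5 as noncoding. In KO polysomes 6 of 6 were lower (median -1.64), beside 21.1% of all genes called lower. The 6 values ran from -1.43 ± 0.38 for Snhg15 (edgeR adjusted p = 0.0135) to -1.89 ± 0.46 for Snhg20 (adjusted p = 0.00938). In total RNA Epb41l4aos alone passed (-1.01 ± 0.26, edgeR adjusted p = 0.0170), beside 12.2% of all genes called lower. The median over the 6 was -0.72, and how many passed depended on the WT polysome libraries kept. In polysomes the median was -0.80 without replicate 2 of WT polysomes and -1.42 without replicate 1 of KO polysomes. Fewer of the 6 were then called, and the number of all genes called also varied with the library left out. Every noncoding gene that holds an annotated snoRNA was also counted (29 with an ID, 16 tested). Of these 16, 11 were lower and 0 higher in polysomes (median -1.54). Gas5, Snhg12 and the 5 noncoding hosts above are among the 11, so this count is not separate from those above. Fewer noncoding hosts were called lower without replicate 2 of WT or without replicate 1 of KO.

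**Figure D3:**
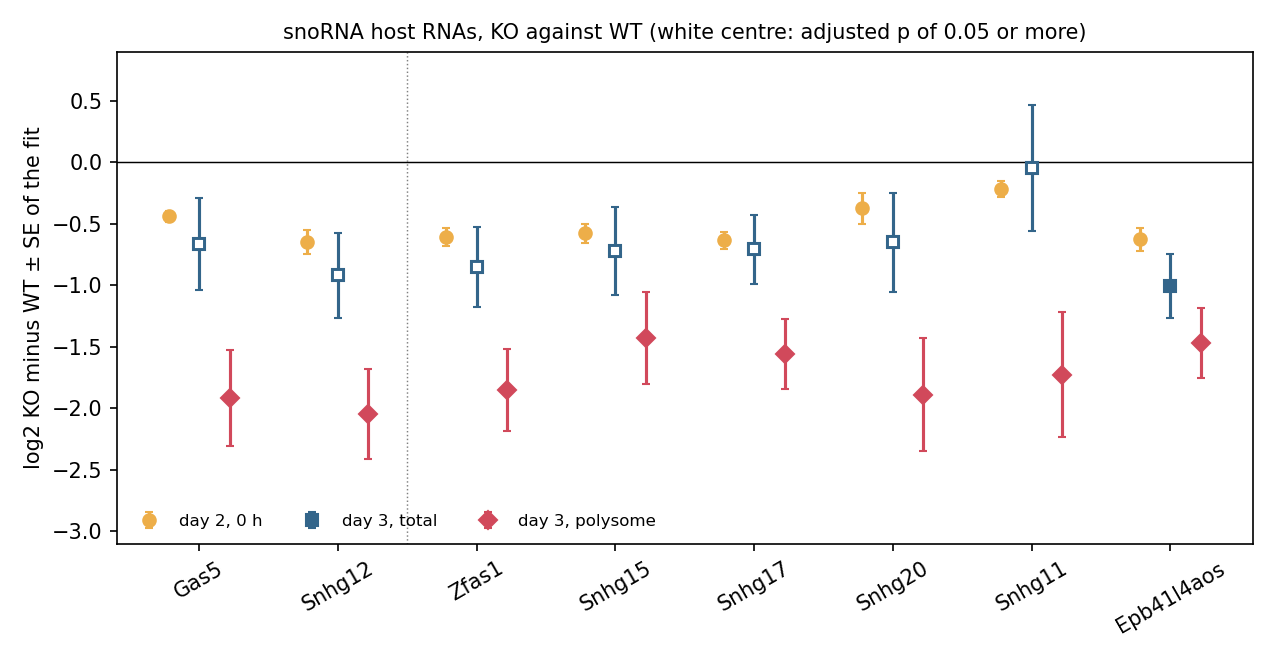
Log2 difference of KO minus WT (bars, standard error from the fit) for Gas5 and Snhg12 (left of the dotted line) and 6 other listed snoRNA hosts (Snhg11 is annotated as protein-coding), on day 2 at 0 h, in day 3 total RNA and in day 3 polysomes; a white centre marks an adjusted p of 0.05 or more. All 24 values are under 0, and for each gene the polysome value is the lowest, at -1.92 for Gas5 and -2.04 for Snhg12.

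SnoRNA genes inside the hosts were read mainly in total libraries. Snora16a, inside Snhg12, had 119 and 103 reads in total WT, 52 and 71 in total KO, 5 and 33 in WT polysomes and 0 and 4 in KO polysomes. Snora24 had 344 and 246, 149 and 181, 7 and 42, and 5 and 5 reads in the same groups, and Snord87 had 127 and 84, 59 and 75, 2 and 19, and 3 and 2. In total RNA the KO difference was -0.94 ± 0.42 for Snora16a (edgeR adjusted p = 0.113), -0.92 ± 0.33 for Snora24 (0.0614) and -0.74 ± 0.36 for Snord87 (0.146), so none of these 3 passed, and Snhg12 itself was at -0.92. Exons of 2 annotated Snhg12 transcripts cover Snora16a and an exon of 1 Snhg8 transcript covers Snora24, so reads of these snoRNAs and of host RNA cannot be told apart. In polysomes Snora16a (-3.41 ± 0.92, adjusted p = 0.0150) and Snora24 (-2.49 ± 0.67, adjusted p = 0.0150) were lower, on these few reads, Snord87 did not pass (-2.26 ± 0.86, adjusted p = 0.0608), and again the highest library was replicate 2 of WT.

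On day 2, before actinomycin D, both hosts were lower in KO, and here both arms were of 1 line by label. Gas5 stood at 167.8 and 154.7 CPM in WT and at 116.1 and 121.5 in KO. Snhg12 stood at 25.8 and 24.0 CPM in WT and at 15.3 and 16.5 in KO. KO means were 0.737 of WT for Gas5 and 0.639 for Snhg12. The difference was -0.44 ± 0.047 for Gas5 (edgeR adjusted p = 1.66e-10) and -0.65 ± 0.098 for Snhg12 (adjusted p = 4.13e-07), so 2 of 2 were lower, where 62.7% of all 15823 genes were called and 32.9% called lower. These values are relative to the average RNA of a library, since the sources used here name no spike-in. Scaled to ribosomal protein mRNAs, of which 71 of 76 were themselves lower in KO, Gas5 was at -0.02 (adjusted p = 0.787) and Snhg12 at -0.22 (adjusted p = 0.0448). Scaled to mitochondrially encoded mRNAs, Gas5 was at 0.05 and Snhg12 at -0.16, and neither passed, where 6300 genes were called higher and 184 lower. RLE scaling shifted the median of all genes from -0.01 to -0.15, and library totals alone to 0.14, with both hosts still called. All 6 of the other tested hosts were lower as well (median -0.59), from -0.22 ± 0.064 for Snhg11 to -0.63 ± 0.069 for Snhg17. With scaling to ribosomal protein mRNAs 2 of them were lower and 1 higher, where 10259 of all genes were called higher and 1113 lower.

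After actinomycin D, Snhg12 fell steeply by 4 h in both genotypes and Gas5 fell slightly, and both stood higher at 8 h than at 4 h. Gas5 in WT went from a mean of 161.2 CPM at 0 h to 126.0 and 141.4 at 4 h and 224.2 and 222.3 at 8 h. In KO it went from 118.8 to 89.6 and 89.3, and then to 112.2 and 115.8. As a percent of the 0 h mean, Gas5 stood at 82.9% ± 6.78 (SD, n = 2) at 4 h and 138.5% ± 0.800 at 8 h in WT, and at 75.3% ± 0.162 and 96.0% ± 2.19 in KO. The Gas5 values at 4 h lay close between WT and KO. Snhg12 in WT went from a mean of 24.9 CPM to 7.81 and 10.3 at 4 h and 15.5 and 15.1 at 8 h. In KO it went from 15.9 to 2.80 and 4.41, and then to 4.65 and 4.82. This left Snhg12 at 36.4% ± 7.03 and 61.6% ± 1.17 of its 0 h level in WT and at 22.7% ± 7.15 and 29.8% ± 0.730 in KO. Each Snhg12 value at 4 h in KO rested on 69 to 72 reads. All these levels are shares of the RNA present at each time, and no absolute decay rate was computed.

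**Figure D4:**
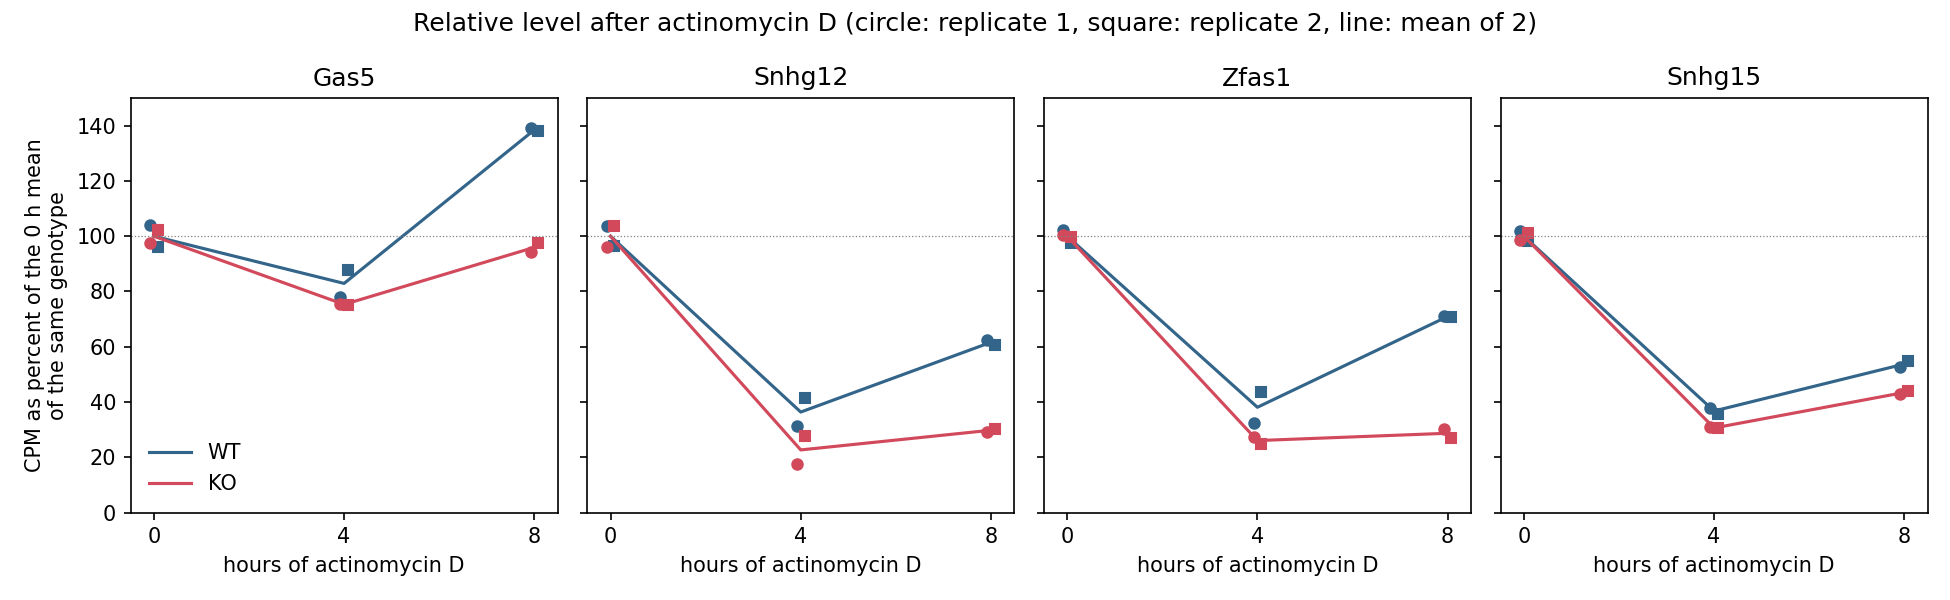
CPM after actinomycin D as a percent of the 0 h mean of the same genotype for Gas5, Snhg12 and the hosts Zfas1 and Snhg15 (blue, WT; red, KO; circle, replicate 1; square, replicate 2, drawn slightly apart; line, mean of 2). Every curve is lowest at 4 h, and at 8 h Snhg12 stands at 61.6% in WT and 29.8% in KO.

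Straight lines through 0, 4 and 8 h gave slopes of 0.06 ± 0.029 log2 per hour for Gas5 (adjusted p = 0.0912) and -0.09 ± 0.071 for Snhg12 (adjusted p = 0.280) in WT, with 0 of 2 called beside 73.8% of all genes. In KO they were -0.01 ± 0.029 (adjusted p = 0.835) and -0.23 ± 0.077 (adjusted p = 0.0269), so Snhg12 alone was called, beside 67.9% of genes called and 36.3% called lower. That call was lost without either KO library of 0 h (adjusted p = 0.0927 and 0.105). The slope difference of KO minus WT was -0.07 ± 0.041 for Gas5 (adjusted p = 0.317) and -0.14 ± 0.10 for Snhg12 (adjusted p = 0.425), with 0 of 2 called lower beside 8.78% of genes. The levels did not follow a line. With time as a factor the change from 0 to 8 h, per hour, differed between genotypes for Gas5 (-0.07, adjusted p = 1.61e-08) and Snhg12 (-0.13, adjusted p = 1.53e-06), where 6714 genes were called in place of 3003. Scaled to ribosomal protein mRNAs, Gas5's WT slope turned to -0.09 (adjusted p = 0.0490).

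Changes over the 2 intervals were added after the values at 4 and 8 h were seen. From 0 to 4 h, Gas5 fell by 0.27 ± 0.047 on the log2 scale in WT (adjusted p = 2.63e-06) and by 0.41 ± 0.050 in KO (2.46e-09), and Snhg12 by 1.46 ± 0.11 in WT (3.31e-15) and by 2.21 ± 0.14 in KO (9.30e-17). All 4 changes were called, where 71.2% of genes were called in WT and 64.1% in KO, 36.2% and 33.6% downward. The fall was deeper in KO for Snhg12 (difference -0.75 ± 0.19, adjusted p = 0.00217) and did not pass for Gas5 (-0.14 ± 0.069, adjusted p = 0.140), beside 26.5% of genes called and 13.1% called lower. Snhg12's difference was -0.37 (adjusted p = 0.250) without replicate 1 of KO at 4 h, and Gas5's passed without replicate 1 of WT at 4 h (-0.21, adjusted p = 0.0101). Gas5's value turned positive with scaling to ribosomal protein mRNAs (0.07) or mitochondrial mRNAs (0.25), neither called.

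From 4 to 8 h both genes rose relative to the remaining RNA. Gas5 rose by 0.74 ± 0.047 in WT (adjusted p = 1.31e-16) and 0.35 ± 0.050 in KO (2.37e-07), and Snhg12 by 0.76 ± 0.12 in WT (7.01e-07) and 0.46 ± 0.17 in KO (0.0277). In WT 48.0% of genes were called and 25.1% upward, and in KO 42.8% and 20.3%. The Snhg12 rise in KO was 0.10 (adjusted p = 0.774) without replicate 1 of KO at 4 h and was also lost without either KO library of 8 h (0.49 and 0.44, adjusted p = 0.0771 and 0.106). In KO both rises lost their calls with scaling to ribosomal protein mRNAs (0.03 and 0.14), and in WT both kept them (0.32 and 0.34). The rise was smaller in KO for Gas5 (difference -0.39 ± 0.068, adjusted p = 2.80e-05), and for Snhg12 it was -0.30 ± 0.21 (adjusted p = 0.342), beside 22.5% of genes called and 11.3% called lower. Snhg12's difference passed without replicate 1 of KO at 4 h (-0.68, adjusted p = 0.0436), and no test compared the timing of the 2 genes. Nuclear Malat1 rose to 753.2% of its 0 h level in WT and 439.1% in KO at 8 h, while Neat1 stood at 48.4% and 34.1%, and the part of nuclear RNA in the rise was not tested.

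The other hosts ranged from strongly lower to higher at 4 h. Zfas1 stood at 38.1% of 0 h in WT and 26.1% in KO at 4 h, Snhg15 at 36.8% and 30.6% and Snhg17 at 62.4% and 43.1%, as for Snhg12. Snhg11 and Snhg20 stood above 100% at 4 h in both genotypes, at 235.7% and 190.0% and at 151.5% and 182.7%. Epb41l4aos stood at 104.9% and 87.9%. From 4 to 8 h in WT 6 of 6 rose (median 0.57), beside 25.1% of all genes called upward. In KO 1 of 6 did (Snhg15, 0.50 ± 0.12, edgeR adjusted p = 4.21e-04), beside 20.3% of all genes. The KO minus WT difference from 4 to 8 h was lower in 4 of 6, beside 11.3% of all genes called lower. The 4 were Zfas1 at -0.77 ± 0.15, Snhg20 at -0.66 ± 0.15, Snhg17 at -0.49 ± 0.12 and Snhg11 at -0.41 ± 0.081. From 0 to 4 h the difference was lower in 3 of 6 (Snhg17, Zfas1 and Snhg11, at -0.54, -0.53 and -0.31), beside 13.1% of all genes. With scaling to mitochondrial mRNAs, 0 of 6 were called in either interval. Over all 15823 genes that scaling called 808 differences higher and 0 lower from 0 to 4 h. From 4 to 8 h it called 11 higher and 6 lower, so the 0 of 6 is not particular to the hosts. At 8 h Zfas1 stood at 71.0% of its 0 h level in WT and at 28.7% in KO.

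Over the 10 group means, centred within the day 3 and the actinomycin D groups, Gas5 and Snhg12 had a correlation of 0.77, given as a description since group means share libraries and scaling. Of 9373 genes ranked, those most like the mean profile of the 2 hosts were Zfp938 (r = 0.966), 1110038B12Rik (0.961), Zfas1 (0.960), 2700081O15Rik (0.954) and Tet2 (0.952). Both 1110038B12Rik and Zfas1 hold annotated snoRNAs. Zfas1 was also the gene most like Snhg12 alone (r = 0.995), with Snhg15 among the next 2 (0.981), whereas the gene most like Gas5 was Sugp2 (0.972), followed by Epb41l4aos (0.950).

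Genes that act on the hosts or their snoRNAs were compared from lists of named genes. The 14 NMD factors lay between -0.54 and 0.29 in total RNA (KO minus WT, median -0.06). None passed with edgeR, where 28.2% of all genes did. Magoh, a core part of the mark that splicing leaves on RNA, had the lowest value there and an unadjusted edgeR p of 0.0183. Of all 18303 genes, 7694 had an unadjusted p under 0.05 in this comparison. In polysomes Upf3b, which bridges the splicing mark to the decay factors, was lower (-0.49 ± 0.14, adjusted p = 0.0195) and Casc3, another core part of that mark, higher (0.45 ± 0.13, adjusted p = 0.0209), so 2 of 14 were called beside 37.0% of all genes. At 0 h 5 were higher and 6 lower, beside 62.7% of all genes called, among them the kinase Smg1 (-0.50 ± 0.047) and Upf2 (0.30 ± 0.042). Of 18 genes for snoRNP proteins and their assembly, 7 were lower in total RNA (median -0.34), with Naf1, an assembly factor, at -0.63 ± 0.14 (adjusted p = 0.00926) and the H/ACA core protein Nhp2 at -0.71 ± 0.17 (adjusted p = 0.0106). The 7 stand beside 12.2% of all genes called lower in total RNA. In polysomes 5 of the 18 were lower, beside 21.1% of all genes, and at 0 h 11 were lower and 3 higher, beside 62.7% called in either direction. Of 34 hosts listed as protein-coding, many of them ribosomal protein genes, 29 were lower at 0 h (median -0.36), 16 in KO polysomes (median -0.56) and 6 in total RNA (median -0.48), with 0 higher in each, beside 32.9%, 21.1% and 12.2% of all genes called lower. GENCODE M21 gives 1 of them, Cct6a, as a processed transcript, so it is also among the 16 noncoding genes counted above, and it passed in none of these 3 comparisons. The direction at 0 h depends on scaling: with mitochondrial mRNAs as the base, 184 of all genes were called lower and 6300 higher. Their polysome examples were Rpl10 (-1.68 ± 0.29) and Rps12 (-1.88 ± 0.37). Of 76 ribosomal protein mRNAs, 71 were lower at 0 h, 58 in KO polysomes and 43 in total RNA.

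Gas5 overlaps Zbtb37 on the other strand, and the sources used here do not say whether the counting used strand, so reads of the 2 genes may be mixed. Zbtb37 held 4.92 to 16.8 CPM over the 20 libraries, against at least 54.4 for Gas5.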

How the data were processed

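RNA-seq counts of 20 libraries were used. Per the submitters' processing notes, the authors used STAR 2.3.0e, HTSeq and the mm9 build. The sources used here do not give the version of HTSeq, its annotation, its strand setting or any spike-in. The deposited values are raw counts per Ensembl gene, about 13800000 to 35200000 per library; rows without a gene were left out of totals and tests, and reads outside genes made up 4.75% to 23.7% of tallied reads. Symbols and positions came from GENCODE M21 (GRCm38), which matched 32919 of 37991 IDs, and no mm9 coordinate was used. RPKM used the union of M21 exons.

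Genes were tested with edgeR 4.0.16 (R 4.3.3) by the robust quasi-likelihood F-test after TMM scaling and filterByExpr (minimum count 10; two-sided, Benjamini-Hochberg over all genes tested, threshold 0.05), in 1 fit of the 8 day 3 libraries (18303 genes) and 1 of the 12 actinomycin D libraries (15823 genes), and the procedure was tested on simulated data. DESeq2 1.42.0 was an alternative, beside other scalings and filters, libraries left out and a replicate block. The tested hosts are named in full. Other genes were named from lists, and the 5 genes most like the hosts by Pearson correlation over 10 group means were taken among genes with an average log2 CPM of at least 3. The chosen genes and the lists were selected with earlier results of these data known. Interval contrasts and list counts under alternatives were added after the values were seen. P-values rest on a spread estimated over all libraries of a fit, with 2 replicates per group, and partly shared across genes. In the straight-line fits this spread also holds the departure of the levels from a line.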

Additional observations from a re-analysis of the deposited data

Results flagged for a closer look

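After actinomycin D, 2 changes of the hosts differed between WT and KO by a test of the difference itself. The same tests called 26.5% of all 15823 genes from 0 to 4 h and 22.5% from 4 to 8 h. Gas5 did not pass from 0 to 4 h (edgeR adjusted p = 0.140), nor did Snhg12 from 4 to 8 h (0.342). These interval tests were added after the values at 4 and 8 h were seen. Snhg12 fell further from 0 to 4 h in KO, with a difference of -0.75 ± 0.19 (log2, SE, edgeR adjusted p = 0.00217), and the value was -0.37 (adjusted p = 0.250) without replicate 1 of KO at 4 h. Gas5 rose less from 4 to 8 h in KO, with a difference of -0.39 ± 0.068 (edgeR adjusted p = 2.80e-05), and leaving out any 1 of the 12 libraries kept it between -0.47 and -0.31. Both lost their call with scaling to mitochondrially encoded mRNAs. That scaling called 0 of all 15823 genes lower from 0 to 4 h and 6 from 4 to 8 h.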

How the results depend on the processing

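Of 843 values under alternatives, 735 kept their direction and side of the threshold (or stayed within 1.5 times for a count), 40 lost and 22 gained a call, 13 changed sign and 33 counts moved further. The causes were not tested, beyond what fewer libraries or genes bring by construction. With 2 libraries per group, leaving 1 out assumes that the lone library varies like the other groups.

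Leaving out 1 library each gave these ranges. For KO minus WT in total RNA, Gas5 ran from -0.94 to -0.49, Snhg12 from -1.20 to -0.73 and genes called from 1289 to 9522 (5156 with all). In polysomes, Gas5 ran from -2.49 to -0.94, Snhg12 from -2.58 to -1.15 and genes called from 3480 to 9406 (6763 with all). For association the ranges were -1.80 to -0.25, -1.63 to -0.21 and 0 to 4959 genes. Polysome minus total in WT ran from -0.79 to 0.76 for Gas5 and -0.71 to 0.72 for Snhg12, and in KO from -1.29 to -0.83 and -1.09 to -0.77. From 0 to 4 h, KO minus WT ran from -0.21 to -0.052 for Gas5 and -1.04 to -0.37 for Snhg12. From 4 to 8 h it ran from -0.68 to -0.0055 for Snhg12, whose rise in KO ran from 0.098 to 0.76. KO slopes ran from -0.021 to 0.0085 for Gas5 and -0.26 to -0.19 for Snhg12, and genes called for the slope difference from 1748 to 3680.

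On day 3, Snhg12 in total RNA passed with RLE scaling (-0.98, adjusted p = 0.0456), DESeq2 (-0.98, 0.0119) and the 4 libraries alone (-0.93, 0.0222), where 10936 genes were called; in polysomes the 4 libraries alone called 3287. Without a filter, Gas5 (-1.81) and Snhg12 (-1.93, adjusted p = 0.0556) lost their polysome calls, and 40 genes were called for association, against 67 with DESeq2. Polysome minus total in KO lost its call for Gas5 with library totals (-0.79), no filter (-0.93) and DESeq2 (-1.09), and for Snhg12 with library totals (-0.67) and no filter (-0.81).

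Scaling to mitochondrial mRNAs called 6484 genes at 0 h, 6350 (WT, 0 to 4 h), 808 (KO minus WT, 0 to 4 h), 675 and 100 (4 to 8 h in WT and KO), 17 (their difference) and 1855 (slope difference). It gave Gas5 0.049 at 0 h, -0.31 and -0.059 (0 to 4 h, WT and KO), 0.25 (difference), 0.60 (4 to 8 h in KO), -0.32 (difference) and slopes of 0.076 and 0.068, and Snhg12 -0.16, -0.31 (difference, 0 to 4 h), 0.68 (4 to 8 h in KO) and -0.15 (KO slope). Scaling to ribosomal protein mRNAs gave Gas5 -0.016 at 0 h, 0.068 (difference, 0 to 4 h), 0.029 (4 to 8 h in KO) and slopes of -0.085 and -0.11, and Snhg12 0.14 (4 to 8 h in KO) and a WT slope of -0.23. DESeq2 called 2786 genes for the 0 to 4 h difference and gave Gas5 slopes of 0.063 in WT and 0.0058 in KO (RLE scaling, 0.0058), and Snhg12 0.43 from 4 to 8 h in KO, where library totals gave 0.37. Without a filter the KO slope of Snhg12 was -0.23 (adjusted p = 0.0512). Time as a factor gave WT slopes of 0.059 and -0.087 for Gas5 and Snhg12 and differences of -0.066 and -0.13, all called, and 6714 genes for the difference.

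The share of calls that were lower moved with scaling. With library totals it went from 43.2% to 14.9% in total RNA, 57.1% to 30.5% in polysomes, and 48.0% to 33.3% and 54.4% to 37.2% for polysome minus total in WT and KO. At 0 h it was 52.4%, and 2.84% to 66.1% over the scalings. From 0 to 4 h it was 50.9% in WT (to 98.9%), 52.4% in KO (33.3% to 99.3%) and 49.3% for the difference (0% with mitochondrial scaling and lower than 49.3% with each other scaling). From 4 to 8 h it was 47.7% in WT (43.4% to 97.5%), 52.5% in KO (to 99.5%) and 50.4% for the difference (25.8% to 65.2%). For slopes it was 52.6% in WT (49.6% to 98.1%), 53.4% in KO (29.0% to 99.6%) and 46.3% for the difference (0.485% to 24.7%).

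Replicate numbers are not said to pair samples, and deviations of same-numbered replicates correlated at 0.334 (total), 0.285 (polysome) and 0.0662 (0 h) between WT and KO. A replicate block changed 1 host call, Snhg12 in total RNA (-0.95, adjusted p = 0.0490), and kept counts of genes within 1.5 times. Depth limits Snhg12 at 4 h in KO (69 to 72 reads) and the snoRNA genes in KO polysomes (0 to 5 reads).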
